A study of Mus musculus with 2 samples.

Results

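Clustered shared Hnf4a regions were places where 3 or more Hnf4a peak regions seen in both replicates followed each other at short distances. Peak summits of both replicates on chromosomes 1 to 19 were pooled, and neighbours at most 100 bp apart were chained into regions. A chain with a summit of each replicate was a shared region, placed at the midpoint of the chain. Shared regions with gaps of at most 12500 bp were then stitched into groups, and the members are the regions of groups of at least 3. They numbered 379 of 9032 shared regions on these chromosomes (4.20%), in 118 groups. Of the other shared regions, 1508 lay in pairs and 7145 stood alone. Members were chosen by the measured positions of summits in both replicates, and the scores come from the same peak calls, so counts, spans, gaps and scores are descriptions and no test was made. Each of the 379 members held exactly 1 summit of each replicate.

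The cells were iHepCs, hepatocyte-like cells made from embryonic fibroblasts of wild-type C57BL/6J mice by retroviral Foxa2 and Hnf4a. Per the labels, they grew with insulin, nicotinamide, 100 nM dexamethasone, 20 ng/ml hepatocyte growth factor and 20 ng/ml epidermal growth factor. Hnf4a was mapped by ChIL-seq: an antibody-borne probe guides transposase to the bound site, and the DNA tagged there is transcribed in place. Both samples belong to 1 group, and 10000 cells were plated per well. The peak names give both libraries the same lot, and what that lot covers is not given. No control sample or untreated fibroblast was analysed here, and nothing in the peak lists tells the introduced Hnf4a from the cells' own. The labels give the tissue as embryo and the cell type as fibroblast, and the files hold no expression values against which hepatocyte or fibroblast markers could be checked. The lists held 21283 summits in replicate 1 and 24097 in replicate 2, of which 20807 and 23499 lay on chromosomes 1 to 19. The depth of sequencing is unknown from them.

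Hnf4a is a nuclear receptor that binds DNA as a homodimer at direct repeats of a hexamer and activates much of the hepatocyte programme, from plasma proteins to lipid and bile acid metabolism. Foxa2 is a forkhead factor that can bind closed chromatin and shares many liver enhancers with Hnf4a. Dense runs of sites for such factors often mark large enhancers, and their target genes need not be the nearest ones.

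Sequence was at hand for promoters, so the promoters that held the midpoint of a clustered region are shown first. Of 31396 RefSeq promoter windows (250 bases before to 50 after a transcription start, build GRCm38.p6, the assembly of mm10), 25 held such a midpoint. The 7 printed here are upstream parts of windows whose 250 bases before the start overlap no other annotated gene, and they cover group loci of different kinds. Each reads 5′ to 3′ toward the start, and capitals mark the 21 bases centred on the region midpoint. Tnfaip3 encodes A20, a ubiquitin-editing inhibitor of NF-kB signalling (chr10:19015411-19015660, minus strand). Sgta encodes a co-chaperone for tail-anchored membrane proteins (chr10:81060272-81060521, minus strand). Thop1, a neighbour in the same group, encodes a metallopeptidase (chr10:81069833-81070082, plus strand). Med29 encodes a Mediator subunit (chr7:28392691-28392940, minus strand). Ensa encodes an inhibitor of the phosphatase PP2A (chr3:95624730-95624979, plus strand). Ypel5 encodes a small zinc-binding protein (chr17:72836378-72836627, plus strand). Gm30153 is a long non-coding RNA beside Cdk18 (chr1:132145227-132145476, minus strand).
Tnfaip3: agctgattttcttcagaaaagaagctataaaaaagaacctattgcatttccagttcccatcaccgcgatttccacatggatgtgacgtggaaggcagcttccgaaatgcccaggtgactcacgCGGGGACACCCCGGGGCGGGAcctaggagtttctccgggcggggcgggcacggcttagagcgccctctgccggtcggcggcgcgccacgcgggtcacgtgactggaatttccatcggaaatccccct
Sgta: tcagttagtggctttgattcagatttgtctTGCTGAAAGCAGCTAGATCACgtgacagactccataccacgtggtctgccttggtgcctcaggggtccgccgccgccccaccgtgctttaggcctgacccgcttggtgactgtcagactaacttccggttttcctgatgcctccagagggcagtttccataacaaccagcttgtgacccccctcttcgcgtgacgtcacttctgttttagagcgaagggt
Thop1: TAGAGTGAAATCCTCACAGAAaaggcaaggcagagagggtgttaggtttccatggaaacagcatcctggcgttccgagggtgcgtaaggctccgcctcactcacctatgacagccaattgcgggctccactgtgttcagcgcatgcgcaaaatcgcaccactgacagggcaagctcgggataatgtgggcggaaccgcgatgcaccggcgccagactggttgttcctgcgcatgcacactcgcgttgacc
Med29: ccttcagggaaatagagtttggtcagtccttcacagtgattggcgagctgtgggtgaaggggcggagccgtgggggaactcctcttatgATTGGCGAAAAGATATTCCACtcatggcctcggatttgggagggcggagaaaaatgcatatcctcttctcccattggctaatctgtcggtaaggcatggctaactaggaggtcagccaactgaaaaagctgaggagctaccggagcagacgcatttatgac
Ensa: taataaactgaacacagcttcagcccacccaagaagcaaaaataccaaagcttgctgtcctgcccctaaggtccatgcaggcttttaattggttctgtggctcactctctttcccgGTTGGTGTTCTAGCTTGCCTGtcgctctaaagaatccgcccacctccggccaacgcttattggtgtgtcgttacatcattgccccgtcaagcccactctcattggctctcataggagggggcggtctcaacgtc
Ypel5: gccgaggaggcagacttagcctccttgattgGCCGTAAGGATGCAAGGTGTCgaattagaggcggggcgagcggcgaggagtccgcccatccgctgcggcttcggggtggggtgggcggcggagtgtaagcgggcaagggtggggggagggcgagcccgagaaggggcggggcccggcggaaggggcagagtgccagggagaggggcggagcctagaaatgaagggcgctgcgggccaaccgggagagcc
Gm30153: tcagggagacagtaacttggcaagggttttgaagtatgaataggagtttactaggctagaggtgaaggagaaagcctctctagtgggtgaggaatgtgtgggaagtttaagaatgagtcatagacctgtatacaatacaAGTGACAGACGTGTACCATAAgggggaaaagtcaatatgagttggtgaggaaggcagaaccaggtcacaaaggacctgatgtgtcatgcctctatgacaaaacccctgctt

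The region at Tnfaip3 lay at −117 from the start and scored 15.3 in replicate 1 and 7.79 in replicate 2, where the score is the authors' −log10 q of the summit. Counted from the same start, an AP-1 site began at −136 and the TATA box letters TATAAA at −225. These are matches of letters only, and whether they work as such elements was not tested. The Sgta region lay at −210 and scored 12.3 and 7.88, and its window held an ETS site at −99 and a CRE site at −30. The Gm30153 region lay at −101 and scored 29.9 and 21.98, with an AP-1 site at −137. None of the 8 motifs searched lay in the 250 bases printed for Thop1, Med29, Ensa and Ypel5. Their regions scored 8.96 and 8.38 at Thop1, 20.2 and 15.2 at Med29, 12.2 and 26.9 at Ensa, and 15.8 and 15.7 at Ypel5. The Ensa pair is the least alike of these, being higher in replicate 2.

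Motif matches were counted on both strands of the whole 300-base windows, as exact letters. The HNF4 site CAAAGTCCA was in 0 of the 25 windows with a clustered region, in 4 of 997 windows with a single region (0.401%) and in 0.487% of all windows. CAAAGGTCA, which is part of a direct repeat and not the whole of it, was in 0 of 25. It was in 0.100% of the windows with a single region and in 0.475% of all. Whole direct repeats were not searched. The shorter HNF4 core AAAGTCC, which lies inside the HNF4 site, was in 0 of 25, 4.61% and 4.22%. At such shares a count of 0 in 25 is near the background. The AP-1 site TGACTCA was in 3 of 25 (12%), in 5.02% of the windows with a single region and in 5.26% of all. The ETS site CCGGAAG was in 2 of 25 (8%), 20.96% and 9.004%. The Foxa site TGTTTAC, the CRE site TGACGTCA and the TATA box TATAAA were each in 1 of 25 (4%), against 3.71%, 1.83% and 13.6% of all windows. GC content had a median of 63% in the 25 windows, 60.7% in those with a single region and 53% in all. Some of the 25 windows share 1 region and overlap on opposite strands, such as those of Med29 and Paf1, so its bases count more than once. These windows cover few of the members, and the sequence of the others was not used here.

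Most groups were small. There were 98 groups of 3 regions, 16 of 4, 3 of 5 and 1 of 6. A group's span, from its first to its last midpoint, ran from 2627 to 26957 bp with a median of 14093 and quartiles of 10756.5 and 17734 bp. The 261 gaps between neighbouring members ran from 391 to 12446 bp with a median of 6962. Of these gaps, 29 were under 1 kb and 53 over 10 kb, so that the regions were seldom side by side. Inside the spans lay 20 further summits of replicate 1, in 18 groups, and 18 of replicate 2, in 17 groups. In 85 groups no other summit of either replicate lay in the span.

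**Figure D1:**
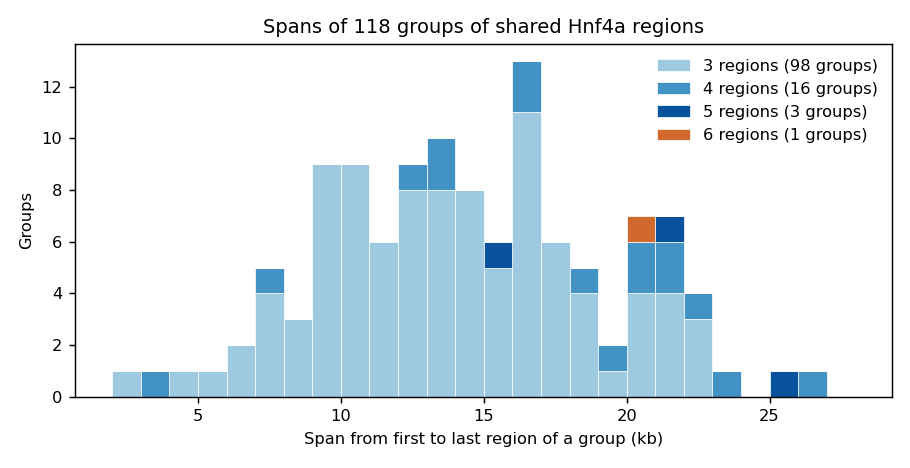
Number of groups by span in kb, from first to last region midpoint, in bins of 1 kb, with colour for the number of regions in the group. Most of the 118 groups hold 3 regions, and the group of 6 spans 20751 bp, less than the widest group of 4 (26957 bp).

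The stitching limit decided some memberships narrowly. The largest gaps inside groups were 12446 bp at Selenbp2, a selenium-binding protein, 12435 bp at D5Ertd579e and 12407 bp within Vgll4, a cofactor of TEAD factors. The scores beside the first of these gaps were 2.95 and 6.04 before it and 6.43 and 9.15 after it, in replicates 1 and 2. Just outside, a gap of 12516 bp left a region at Mtus1 alone (27.7 and 32.1) beside a pair. A gap of 12541 bp left a region at Cyb5a alone (34.3 and 57.8) beside a group of 3, and one of 12605 bp did so at Uggt1 (32.4 and 28.1) beside a pair. Across these gaps, the adjoining regions of the Mtus1 and Uggt1 pairs, also left out, scored lower, at 6.34 and 11.1 and at 6.82 and 5.70. The adjoining member at Cyb5a scored 8.15 and 11.4.

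Scores were slightly higher in larger groups. For single regions, replicate 1 gave a median of 9.83 and replicate 2 gave 9.46. Pairs had 10.1 and 10.3, groups of 3 had 11.3 and 10.1, groups of 4 had 11.8 and 12.54, and groups of 5 or 6 had 17.4 and 15.4. Replicate 2 broke the order between pairs and groups of 3, and the last class held 21 regions of 4 groups. In that class the 3 groups of 5 had 13.8 and 14.1 (15 regions). The group of 6, on chromosome 9, had 34.7 and 31.9. All 379 members had medians of 11.7 and 10.6, with quartiles of 7.88 and 16.3 in replicate 1 and 7.60 and 15.7 in replicate 2. The quartiles of single regions, 6.94 to 14.6 and 6.70 to 14.1, overlapped these for most of their length. The median of members over that of single regions was 1.19 for replicate 1 and 1.12 for replicate 2, with a mean of 1.15 ± 0.0505 (SD, n = 2).

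**Figure D2:**
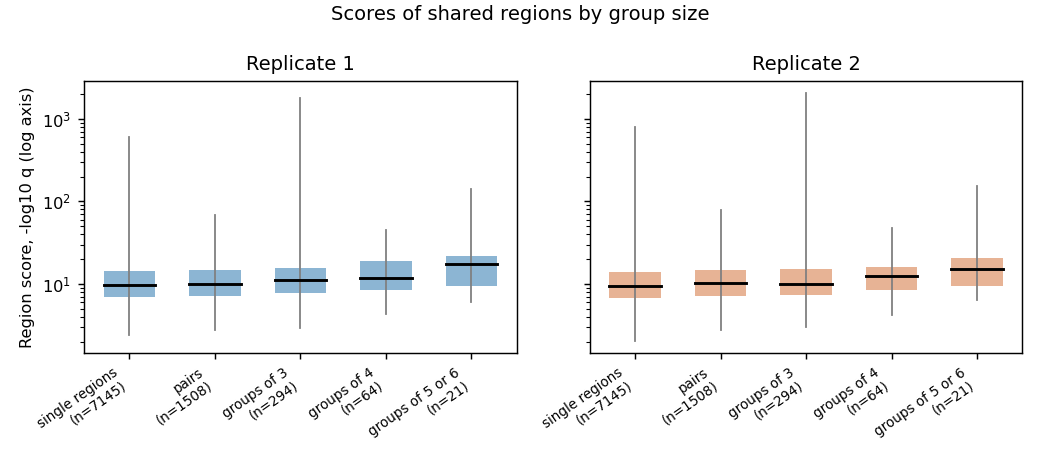
Scores (−log10 q, log axis) of shared regions by the number of regions in their group, for each replicate, with a black line at the median, a box over the quartiles and a grey line from lowest to highest. Medians are 9.83 and 9.46 for single regions and 17.4 and 15.4 for groups of 5 or 6, of which the groups of 5 alone have 13.8 and 14.1. The quartile ranges of neighbouring classes overlap.

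High scores came in part from 4 groups. They were the 3 groups that held a region over 100 in both replicates and the group at an 18S rRNA pseudogene, chosen after their values were seen, and they held 16 regions. Without them the ratio to single regions was 1.15 and 1.08, with a mean of 1.11 ± 0.0518 (SD, n = 2). A score over 20 in both replicates was found in 36 members (9.50%), beside 6.98% of all shared regions and 6.68% of single ones. Without the 4 groups it was found in 27 of 363 (7.44%), near the background. Scores over 100 in both replicates were not particular to members: 6 single regions had them, beside 5 members. Those single regions stayed in the comparisons without the 4 groups. Leaving out every region over 100 in both replicates, single ones too, gave a mean ratio of 1.14.

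The 4 groups lay far from protein-coding genes. The only group of 6 lay near the start of chromosome 9 (chr9:3015308-3036059), with Alkbh8 the nearest gene at 299172 bp. Its regions scored, in order and in replicates 1 and 2, 9.44 and 12.2, 25.3 and 19.4, 143 and 152, 44.1 and 44.5, 71.7 and 91.0, and 19.2 and 15.2. Both replicates put these 6 regions in the same order of score. The highest scores of all members were in a group on chromosome 2 (chr2:98662281-98667132), 1030609 bp from Lrrc4c, with 1540 and 1856, 107 and 138, and 1799 and 2028. On chromosome 14, a group of 2627 bp (chr14:19416193-19418820) held 1 region at 221 and 263 between neighbours at 17.3 and 13.5 and at 17.8 and 27.5. The fourth, chr17:39843400-39846486, overlapped the pseudogene Rn18s-rs5 and had the smallest mean gap of all, 1029 bp, with scores of 32.6 and 28.1, 25.02 and 23.7, 8.23 and 10.8, and 12.04 and 16.98. Whether reads from repeated sequence placed these summits was not tested.

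**Figure D3:**
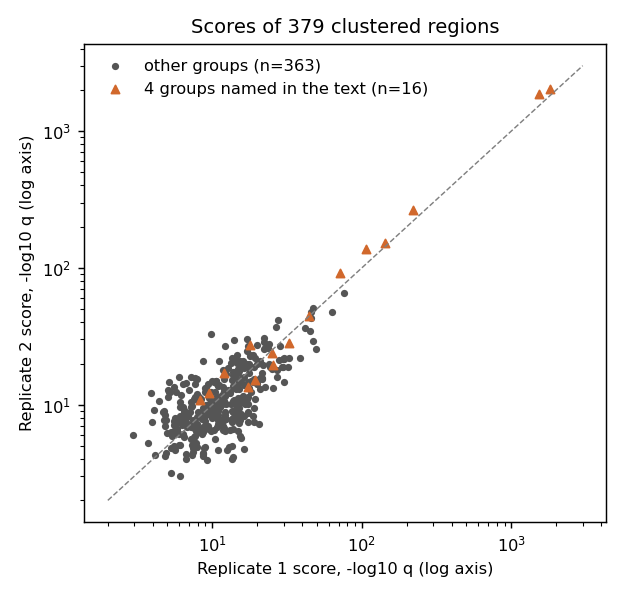
Score (−log10 q) of each of the 379 members in replicate 1 against replicate 2, on log axes, with the line of equal scores. Triangles are the 16 regions of the 4 groups named in the text, which hold every score over 100 in both replicates.

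Between the replicates, the members' scores had a Spearman rho of 0.652 and a Pearson r of 0.812 on the log10 scale, across regions of the same libraries. Without the 4 groups these were 0.621 and 0.668, and single regions had 0.577 and 0.645. Regions of 1 group share a locus and are not independent. The median log2 of replicate 2 over replicate 1 was −0.06 over the members.

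Groups usually had no dominant region. The best region of a group scored 1.37 times the second best in replicate 1 and 1.49 times in replicate 2, as medians over the 118 groups. The same region was best in both replicates in 74 groups (62.7%). In 8 groups 1 region scored over 2 times the next in both replicates. Among them, a region within Antxr1, a receptor for collagen and anthrax toxin, scored 76.2 and 65.2 beside neighbours at 15.6 and 15.3 and at 15.1 and 14.7. A region within Fto, an RNA demethylase gene, scored 46.8 and 50.8 beside others at 18.2 and 12.4 and at 6.01 and 5.05. In Lama2, the laminin alpha 2 gene, 1 region scored 49.3 and 25.4 beside others at 13.7 and 4.15 and at 13.4 and 10.1. The last region within Abcc4, described with its group, was another of the 8. Antxr1, Fto and Lama2 were chosen as examples after their values were seen.

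Groups also differed in their lowest scores. In 10 groups every region scored over 10 in both replicates, and in 27 groups no region did. This limit does not measure evenness, as the 10 include the group within Antxr1 with its dominant region. At Tiparp, a target of the aryl hydrocarbon receptor that encodes an ADP-ribosyltransferase, the regions scored 14.6 and 23.1, 27.1 and 17.9, and 25.2 and 18.2 (chr3:65516156-65529920). The 3 regions within Vgll4 were nearly level in replicate 1, at 17.3, 17.4 and 17.6, and less so in replicate 2, at 14.54, 10.2 and 18.6 (chr6:114887812-114901527). Tiparp was chosen after its values were seen.

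A smaller share of members than of single regions lay at gene ends, a difference given here without a test. Of 379 members, 39 were within 1 kb of either end of a protein-coding gene (10.3%, exact 95% binomial interval 7.42 to 13.8%), beside 20.0% of single regions (19.1 to 20.99%), 13.7% of pairs and 18.6% of all shared regions. With the rule applied to 1 replicate alone the gap was smaller, at 13.6% against 18.0% in replicate 1 and 12.7% against 15.6% in replicate 2. Within 1 kb of an annotated transcription start were 39 of 364 members (10.7%) and 19.7% of single regions, with 18.6% of all shared regions that could be placed. Starts of non-coding genes count here, unlike for gene ends, so both shares are over different sets of genes. Inside a gene, over 1 kb from its ends, were 168 members (44.3%, 39.3 to 49.5%) and 39.6% of single regions. Between 1 and 10 kb outside a gene were 46 (12.1%) and 8.43%, and over 10 kb away 126 (33.2%) and 31.9%. The intervals treat regions as independent, which those of 1 group are not, and cover counting error only.

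**Figure D4:**
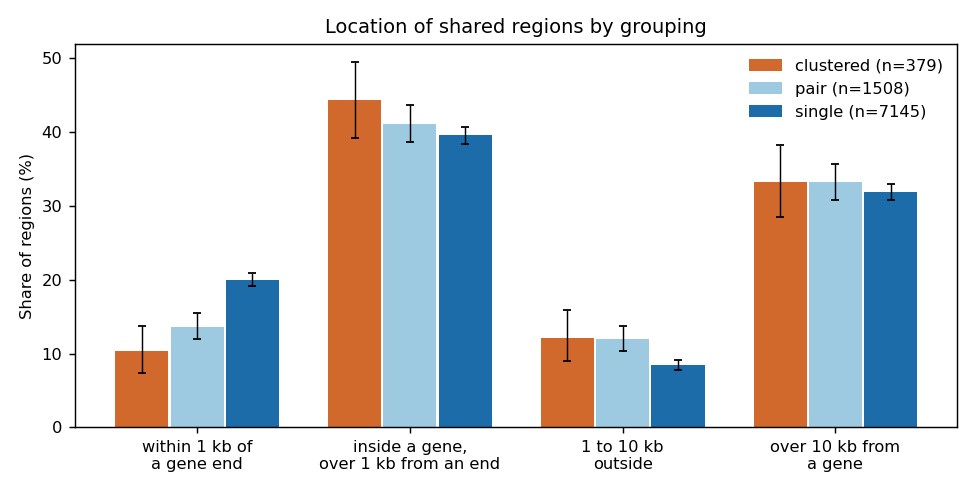
Share (%) of members, pairs and single regions in each location relative to protein-coding genes, with exact 95% binomial intervals. The share within 1 kb of a gene end is 10.3% for members and 20.0% for single regions, while the classes over 10 kb from a gene are alike (33.2% and 31.9%).

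At the scale of groups, 31 of 118 had a region within 1 kb of a gene end and 29 of 113 had one within 1 kb of a transcription start. In 8 groups this held for 2 or more regions, and in 1, at Ccdc9 and Inafm1, all 3 regions lay within 1 kb of a gene end. These 3 scored 18.6 and 14.54, 6.08 and 3.01, and 21.5 and 17.1 (chr7:16273516-16286315), with the middle region lowest in both replicates. Beside Ptms, which encodes parathymosin, and Mlf2, regions 132, 232 and 417 bp from a start scored 12.3 and 16.8, 22.1 and 25.6, and 16.6 and 10.2 (chr6:124918078-124930971). The middle region lay 1876 bp from Ptms, the nearest protein-coding gene, so its nearest start was that of a non-coding gene. At Cds2, a CDP-diacylglycerol synthase, and its neighbour Pcna, the sliding clamp of DNA replication, regions 241 and 238 bp from a start scored 9.49 and 9.04, and 13.2 and 12.1, while a region inside Cds2, 6995 bp from any start, scored 6.63 and 3.98 (chr2:132253421-132270143). At Fkbp8, a peptidyl-prolyl isomerase of mitochondria, and its neighbour Ell, the order was the other way (chr8:70529841-70539483). The region farthest from a start, at 2098 bp and inside Fkbp8, scored 14.48 and 20.7. Those at 730 and 46 bp from a start scored 11.3 and 9.59, and 8.98 and 6.67. That start belongs to the long non-coding RNA Gm51534, and the same regions lay 876 and 192 bp from Ell. Scores thus did not follow the distance from a start in one way across these groups, which were chosen after their values were seen.

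In each location the members' median score was above that of single regions in both replicates. At gene ends it was 12.7 and 11.6 against 10.3 and 9.85. Inside genes the gap was smaller, 10.8 and 9.51 against 9.71 and 9.15. Between 1 and 10 kb outside, members had 12.03 and 9.97 and single regions 9.63 and 9.37. Over 10 kb from any gene they had 12.3 and 13.0 against 9.78 and 9.61, and 11.2 and 11.8 without the 4 groups.

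By gene, 42 of the 118 groups lay with all their regions within 1 gene, 25 overlapped 1 gene in another way and 8 overlapped several. Another 12 overlapped none but lay within 10 kb of one, and 31 lay farther away. Of the 43 groups that overlapped no protein-coding gene, 21 overlapped a non-coding gene of the table. The 41 genes that hosted whole groups were long, with a median of 156189 bp and a range from 14795 bp (Ccdc9) to 635907 bp (Lama2). The 2585 genes that held a single region had a median of 69594 bp and all 20665 genes one of 17491 bp. A host had to contain the whole span of a group, and a gene with a single region only 1 midpoint. The rule itself thus favours longer genes as hosts, and these lengths are not compared like for like. The part of gene length in where groups lie was not tested. Gene density was alike: a median of 2 protein-coding genes (quartiles 1 and 4) lay within 100 kb of a group's centre, as of a single region.

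Of the groups with the most regions, the one at Smg1, the kinase that phosphorylates Upf1 in nonsense-mediated mRNA decay, held 5 (chr7:118243770-118258783). Its first region lay 133 bp from a transcription start and scored 18.9 and 18.7. The next, 6275 bp outside the gene on the side of its transcription start, scored 47.3 and 29.1, the highest of the group in both replicates. The others scored 11.96 and 15.4, 9.54 and 6.63, and 22.02 and 28.7, the last of them 14346 bp from Smg1. All but the first thus lay outside the gene.

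Another 5 regions lay in a span of 25462 bp near Arl4a, a small GTPase of the ARF family (chr12:39998566-40024028), the closest 9263 bp from the gene. These scored between 6.34 and 21.4 in replicate 1 and between 8.85 and 20.9 in replicate 2, with a different best region in each replicate.

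Some groups of 4 lay wholly inside a gene. In Camk2d, a calcium/calmodulin-dependent kinase subunit, they ran from 7.13 to 17.3 in replicate 1 and from 7.49 to 14.7 in replicate 2 (chr3:126695896-126707920). Itgb6, the beta chain of an epithelial integrin that activates TGF-beta, held 4 at 17.1 and 11.3, 8.87 and 8.30, 10.6 and 14.9, and 25.5 and 13.3 (chr2:60626092-60639692). In Dcaf5, a substrate receptor of CUL4 ubiquitin ligases, the range was 6.40 to 18.9 and 6.14 to 9.45 (chr12:80366370-80380170). Rasgef1b, an exchange factor for small GTPases, held 1 region 130 bp from its start at 4.67 and 8.91, the lowest of its 4 in both replicates, and the others at 17.3 and 27.0, 13.5 and 15.1, and 20.9 and 15.5 (chr5:99236740-99252797). In that gene the interior regions therefore outscored the one at the start.

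The widest group, 26957 bp, reached from 8044 bp outside Tm4sf1, a tetraspan membrane protein of migrating cells, into and across the gene's interior (chr3:57277567-57304524). It scored 15.01 and 17.6, 4.40 and 10.6, 9.98 and 7.94, and 19.9 and 14.7, so its outer regions were the high ones in both replicates. The group at Cdk18, a cyclin-dependent kinase, spanned 23924 bp, with 9.39 and 8.49 inside the gene and 29.9 and 21.98, 19.8 and 14.2, and 17.7 and 19.7 outside it. Its best region is the one at the Gm30153 promoter printed above. A group of 3 regions in 22752 bp around Sphk2, a sphingosine kinase, and Dbp, a clock-controlled transcription factor, took in 4 whole genes and scored 13.6 and 8.96, 5.56 and 7.59, and 11.6 and 10.1 (chr7:45704888-45727640). Abcc4, an exporter of cyclic nucleotides and bile acids, held 4 regions of which the last, at 45.5 and 47.4, stood far above the rest at 11.5 and 9.91, 7.02 and 12.8, and 17.3 and 8.64 (chr14:118656233-118678715). The group at Zfp697, a zinc finger gene, was among the densest, with a mean gap of 2790 bp and scores of 14.0 and 17.2, 5.66 and 8.03, and 19.9 and 19.7 (chr3:98374045-98379624).

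Apart from the groups set apart above, the highest median over a group's regions of the lower of both replicates' scores, 21.4, belonged to a group nearest to Foxo1, the insulin-regulated forkhead factor of gluconeogenic genes. The group lay 102302 bp from Foxo1, over the non-coding gene Gm38537 (chr3:52452411-52470644), and scored 16.4 and 16.0, 27.6 and 41.3, 28.4 and 26.9, and 7.87 and 15.4. A second group of 3 followed 17426 bp on, with medians of 14.4 and 8.18. Near Cdkn2b, an inhibitor of Cdk4 and Cdk6, a group 40783 bp from the gene scored 41.96 and 36.2, 6.08 and 7.67, and 23.9 and 19.8 (chr4:89351815-89362527).

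**Figure D5:**
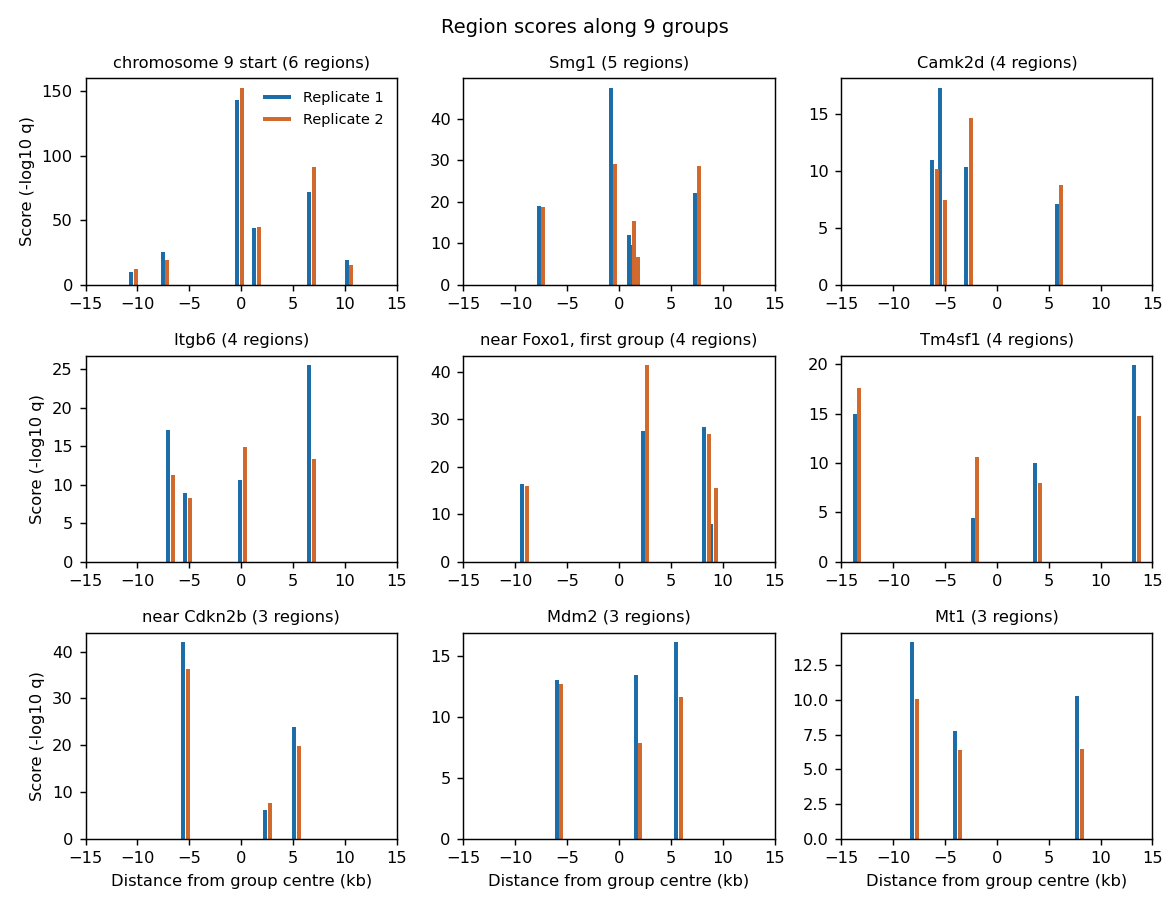
Regions of 9 groups by distance in kb from the group's centre, with line height for the score (−log10 q) in each replicate, drawn slightly apart; each panel has its own score axis. The lines show scores such as 143 and 152 on chromosome 9 and 47.3 and 29.1 at the second Smg1 region.

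Neighbouring groups gathered at 5 loci, at most 200 kb apart, among them Cyb5a, Pkp4, Foxo1 and Itpr1. Itpr1, the IP3 receptor that releases calcium from the endoplasmic reticulum, hosted both of its groups, 33864 bp apart, with 6 clustered regions of 7 shared ones within 10 kb. Pkp4, a desmosome- and junction-associated armadillo protein, had 6 of 8, with 1 region at 63.3 and 47.3. Cyb5a, cytochrome b5, an electron donor for desaturases and P450 enzymes of the liver, had 5 of 6. In all, 69 protein-coding genes (0.334%) had 3 or more clustered regions within 10 kb.

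Few genes of the liver lists lay near a group. Of all 20665 protein-coding genes, 121 (0.586%) had a clustered region within 10 kb and 27.1% had any shared region there. Of 25 hepatocyte transcription factors 0 had a clustered region and 9 any shared region, and of 32 plasma protein genes 0 and 14. The counts were 0 and 9 of 22 genes of bile acid and lipid metabolism, 0 and 5 of 16 of xenobiotic metabolism, and 0 and 5 of 18 of carbohydrate, amino acid and urea metabolism. Fibroblast genes had 0 and 6 of 25, and epithelial junction and keratin genes 0 and 9 of 24. At 0.586% a count of 0 in lists of this size is near the background, so it says nothing particular about liver genes.

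Genes of the lists with a clustered region within 10 kb were Mt1, Mt2 and Mdm2. Mt1 and Mt2, the metal-binding metallothioneins, were 2 of 17 genes known to be induced by glucocorticoid and shared 1 group (chr8:94179062-94194972). Its regions scored 14.1 and 10.1 at 27 bp from a transcription start, 7.77 and 6.43, and 10.3 and 6.50, and the first was highest in both replicates. Mdm2, the ubiquitin ligase that degrades p53, was 1 of 20 genes of the p53 list. Its group (chr10:117710187-117721708) had a region 571 bp from the start at 13.1 and 12.7 and others at 13.5 and 7.83 and at 16.1 and 11.6. Within 25 kb, where 0.784% of all genes had a clustered region, Fos and Bbc3 were added, and within 50 kb, with 1.16% of all genes, Errfi1 and Cd4. Fos, a subunit of AP-1, had its group 11091 bp away, with 13.5 and 7.85, 8.44 and 11.03, and 7.15 and 6.84. Errfi1, a feedback inhibitor of the EGF receptor, had its group 45151 bp away, with all 3 regions over 10 in both replicates at 32.2 and 18.9, 16.2 and 21.01, and 22.7 and 13.6. A group of 4 lay 22479 bp from Selenop, the selenium carrier protein that liver secretes, with its best region at 38.8 and 21.8, and was chosen after its values were seen.

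With gaps of up to 25 kb, 2.17% of all genes had a clustered region within 10 kb, and so did 6 of 32 plasma protein genes. The other liver lists had fewer, with 1 of 25 hepatocyte transcription factors (Nr1i3), 1 of 22 genes of bile acid and lipid metabolism (Abcb4), 1 of 16 of xenobiotic metabolism (Gsta1) and 0 of 18 of carbohydrate, amino acid and urea metabolism. The plasma protein genes were Apoa2, Itih2, Rbp4 and the fibrinogen genes Fga, Fgb and Fgg, the last 3 sharing 1 group, so the 6 genes stand for 4 groups. The fibrinogen group (chr3:83020650-83055397) held 3 regions between 7.70 and 28.8 in replicate 1 and between 5.11 and 17.3 in replicate 2, with a largest gap of 19348 bp. Apoa2, an apolipoprotein of high-density lipoprotein, shared a group of 5 regions with Nr1i3, the xenobiotic receptor CAR. Rbp4, which encodes a retinol carrier, and Itih2, whose product binds hyaluronan, each had a group of 3 regions. Genes of signalling were met too, with Egfr and Ereg of 24 genes of growth factor signalling and Atf3 and Axl of 24 of the AP-1 and YAP list.

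Across chromosomes, the clustered share of shared regions ran from 1.15% on chromosome 4 (6 of 523) and 1.34% on chromosome 5 (7 of 522) to 6.70% on chromosome 16 (24 of 358) and 6.89% on chromosome 3 (39 of 566). The 15 members on chromosome 18 (of 349 shared regions) had no promoter windows here and are left out of the shares at transcription starts.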

How the data were processed

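Per the submitters' processing notes, reads were handled with fastp 0.23.4, HISAT2 2.0.5 and MACS2 2.2.9.1 on build mm10. The deposited lists give 1-bp summits called in each library separately, and the authors' −log10 q-value of each, at or above the 2 that their threshold of 0.01 gives. A control library, removal of duplicates and filters on repeats are not given in the sources used here. Summits more than 100 bp apart count as different regions, and a replicate's missing summit breaks a group.

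Each region took its summit's score in each replicate. Genes came from the RefSeq table of GRCm38.p6, which has no strand; starts and sequences came from its promoter table, without chromosome 18. The 18 gene lists held 368 entries by name, 10 of them unmatched on chromosomes 1 to 19, and all olfactory receptor genes. Named groups were the 10 with most regions, 5 widest, 5 densest, 5 best-scored, those of list genes and those beside the stitching limit, some of which are not reported here. The members and lists were chosen with earlier results of these data known, and nothing was tested. Nothing says whether both samples came from separate reprogrammings. Intervals are exact binomial (95%). Scripts were checked on simulated data. Software was Python 3.11.15, matplotlib 3.10.9, scipy 1.17.1, pandas 2.3.3 and numpy 2.4.6.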

Additional observations from a re-analysis of the deposited data

Results flagged for a closer look

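Regions outside chromosomes 1 to 19 entered no comparison, and some of them formed groups by the same rule. On the unplaced scaffold JH584304, 4 of 7 shared regions lay in 1 group, from base 91145 to 106835. They scored, in replicates 1 and 2, 27.4 and 41.5, 62.0 and 68.8, 122 and 144, and 24.7 and 19.1. On chromosome X, 3 of 147 shared regions formed 1 group, from base 36804477 to 36819865, with 11.9 and 7.17, 12.9 and 6.44, and 9.46 and 11.7. The scaffold scores lay in the range of the 4 groups set apart in the report, and those on X in the range of other members. No control samples were analysed against which to set them.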

How the results depend on the processing

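The number of members depended on every distance and count in the rule. The main values were 379 regions in 118 groups, a median span of 14093 bp, a score ratio to single regions of 1.15, 10.3% of members at gene ends and 42 groups within 1 gene. Stitching at 5 kb gave 25 regions, 8 groups, 3182 bp, 1.69, 4% and 2 groups within 1 gene. Stitching at 25 kb gave 1144 regions, 334 groups, 26460.5 bp and 93. Chaining at 50 bp gave 136, 43, a ratio of 1.34 and 15, and at 200 bp 594, 185, 1.09 and 68. Counting groups of 2 or more gave 1887 regions, 872 groups, 7186.5 bp, 1.07 and 328, and groups of 4 or more gave 85, 20, 1.32, 3.53% and 7. The top 10000 summits of each replicate gave 115 regions, 35 groups, 6.96% and 13. With 1 replicate alone the rule no longer asks for a shared summit: regions ranged from 2365 to 2874, groups from 690 to 859, spans from 14357 to 14414 bp, ratios from 1.15 to 1.17, gene-end shares from 12.7 to 13.6% (single regions 15.6 to 18.0%) and groups within 1 gene from 211 to 274. All genes of the table gave 14.5% at gene ends (24.7% of single regions) and a 2 kb limit 15.3% (23.9%). The ratio was above 1 in 14 of 14 settings (1.07 to 1.69), and the gene-end share was below that of single regions in 15 of 15, though by less with 1 replicate alone (12.7% against 15.6% in replicate 2, beside 10.3% against 20.0% for shared regions); the cause was not tested. Of 80 alternatives, 37 stayed near the main value and 43 moved. Near meant within 1.5 times for counts and spans. For the ratio it meant within the SD of the replicates, and for gene-end shares inside the main 95% interval. Only the ratio could be called reversed, by falling below 1, and 0 of its settings were. Taking a region's lowest summit score gave the main ratio of 1.15 again, as members held 1 summit of each replicate. Leaving out the 4 groups was chosen after seeing the data. No paired analysis was possible because there is only 1 group. Depth and peak widths are unknown from these lists, sequence outside promoters was not used here, and no control sample was analysed, so how many members mark bound Hnf4a is unknown.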
